A study of Mus musculus with 200 samples.

Results

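The 10 muscle genes Myog, Smyd1, Acta1, Actc1, Ttn, Des, Tnnt3, Tnnc2, Myl1 and Ckm were followed through 200 single medullary thymic epithelial cells. They were taken by name as 10 of the 38406 rows of the count table, and each of the 10 had at least 1 count somewhere in the 200 cells. All but Ckm and Myl1 had 10 counts or more. The question was in which cells these genes were found, whether they were found together, and how their levels lay in 4 groups of cells and on 2 sort dates.

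The cells came from the thymus of female B6xNOD mice aged 5 weeks, a cross of the C57BL/6 and non-obese diabetic backgrounds. All mice carried a GFP reporter transgene for Aire, the transcriptional regulator through which medullary epithelial cells express genes of other tissues, so both the wild-type (WT) and the Aire knockout (KO) cells are reporter cells. Cells were gated as CD45-, Ly51-, MHCII+ with high (GFPhi) or low (GFPlo) fluorescence, which gave 61 WT and 48 KO cells in GFPhi, and 39 WT and 52 KO cells in GFPlo. No animal is named, so each group counts as 1 sample, no difference between groups was tested, and the intervals below cover counting error only. A cell with low fluorescence can be a cell before, after or without Aire expression, and the reporter does not tell these apart.

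A sarcomere is the contractile unit of striated muscle. Thin filaments of alpha-actin carry the troponin complex, which makes contraction depend on calcium, thick filaments carry myosin with its light chains, and the giant protein titin spans from the Z disc to the M line. The thymic medulla holds rare muscle-like (myoid) cells, and medullary epithelial cells as a population transcribe muscle proteins such as the acetylcholine receptor, against which antibodies arise in myasthenia gravis. Myogenin, the product of Myog, is the basic helix-loop-helix factor that drives terminal muscle differentiation by binding E-boxes, often beside sites for MEF2 factors.

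Promoters of the 4 genes that hold most of the counts are shown because these genes are read side by side below, and because E-boxes and MEF2 sites are the sequences through which myogenin and its partners are known to act. Each run is the 250 bases before the gene start in the RefSeq annotation of GRCm38.p6, written from 5′ to 3′ along the gene. Capitals mark E-boxes (CANNTG), TATA boxes (TATAAA, either strand), MEF2 sites (with the last base of the site left free) and CArG boxes, the last pair searched by name on both strands. The RefSeq start of Smyd1 lies within the longer span that GENCODE gives the gene.
Myog (chr1:134289754-134290003, plus strand): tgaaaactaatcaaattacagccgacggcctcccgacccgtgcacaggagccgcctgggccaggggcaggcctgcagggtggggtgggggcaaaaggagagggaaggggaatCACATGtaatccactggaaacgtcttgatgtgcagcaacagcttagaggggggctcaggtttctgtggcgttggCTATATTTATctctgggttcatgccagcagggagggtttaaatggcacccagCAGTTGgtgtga
Smyd1 (chr6:71262282-71262531, minus strand): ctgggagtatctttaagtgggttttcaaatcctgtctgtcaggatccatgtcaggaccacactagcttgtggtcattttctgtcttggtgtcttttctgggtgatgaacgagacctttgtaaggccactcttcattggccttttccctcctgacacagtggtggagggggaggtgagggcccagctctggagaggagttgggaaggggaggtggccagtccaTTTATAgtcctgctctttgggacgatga
Ttn (chr2:76982548-76982797, minus strand): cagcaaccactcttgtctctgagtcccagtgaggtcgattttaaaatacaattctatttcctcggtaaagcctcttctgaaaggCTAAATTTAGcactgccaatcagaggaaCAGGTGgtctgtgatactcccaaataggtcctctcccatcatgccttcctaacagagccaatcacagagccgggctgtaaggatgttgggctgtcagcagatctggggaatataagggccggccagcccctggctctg
Des (chr1:75360042-75360291, plus strand): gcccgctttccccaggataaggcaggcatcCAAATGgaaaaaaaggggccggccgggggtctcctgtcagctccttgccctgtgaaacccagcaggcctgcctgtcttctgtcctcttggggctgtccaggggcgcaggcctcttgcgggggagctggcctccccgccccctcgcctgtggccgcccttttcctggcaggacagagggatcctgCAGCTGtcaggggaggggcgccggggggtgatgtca

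The Myog run holds 2 E-boxes and 1 MEF2 site, which lies 64 to 55 bases before the start. The Ttn run holds 1 of each, and the Des run 2 E-boxes, 1 of them of the form CAGCTG. No E-box letters are in the Smyd1 window, which holds TATAAA on the opposite strand 28 to 23 bases before the start. Of 32851 mouse promoters of this length, 66.2% hold an E-box and 13% the form CAGCTG. Among the 9 of the muscle genes matched in that table, 7 and 4 do. A MEF2 site is in 7.03% of all promoters and in 2 of the 9 (Myog and Ttn). CArG boxes, the sites of serum response factor, are in 1.47% of all promoters and in 2 of the 9, the actin genes Acta1 and Actc1. The letters TATAAA are in 12.4% of promoters and 3 of the 9, and the MCAT letters CATTCC in 12.6% and 2 of the 9. A match describes letters in a window and no binding was measured.

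Wells did not all hold independent profiles, which bears on every count of cells below. The wells lay in 12 library pools, 6 per sort date, and were marked within a pool by 30 primers, each of which was used in more than 1 pool and in 1 group. Over 11212 genes found in at least 20 cells, 2 wells with the same primer on the same date had a median correlation of log levels of 0.58 (313 pairs, 0.31 to 0.88). Wells of other primers within a group and date had a median of 0.42 (2449 pairs, at most 0.66). Of the 313 pairs, 84 lay above 0.67, the highest value of any pair with different primers once the pairs of primers ls_5 and ls_12 described next are left out, against 3 of 301 pairs that shared the primer but not the date. Genes found in exactly 2 of the 200 wells numbered 1328, and in 405 of them (30.5%) both wells had the same primer and date, although such pairs are 1.57% of all pairs. Wells of primers ls_5, labelled WT GFPhi, and ls_12, labelled KO GFPlo, shared a profile within a pool in 7 of 7 pools that held both (0.70 to 0.97). Those 2 primers therefore link 2 groups, and 59 of the 1328 genes (4.44%) lay in such a pair, which is 0.0352% of pairs. Below, a set means the wells of 1 primer and date, with ls_5 and ls_12 joined, and there were 52 sets. Values without ls_5 and ls_12, or also with only the deepest well of each set, stand beside the levels of Myog, Smyd1, Ttn, Tnnt3 and Des and the main counts of co-detection.

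Totals ran from 2429 to 370365 counts per cell with a median of 29106.5, and 21 cells had fewer than 10000. Krt8, an epithelial keratin, was found in 195 cells and the epithelial adhesion gene Epcam in 162. In 40 cells the leukocyte markers summed to more counts than the epithelial ones (WT GFPhi 14, KO GFPhi 2, WT GFPlo 8, KO GFPlo 16), and these leukocyte-marked cells also held Krt8 in 36 and Aire in 26 of the 40. Aire itself was at 537 CPM (counts of the gene per 1000000 counts of the group) in WT and 815 in KO GFPhi cells, and at 244 in WT and 316 in KO GFPlo cells. Which exons the knockout lacks is not given in the sources used here, so these counts do not check the genotype. Among the leukocyte markers Igj gave most of the WT sum, 5301 of 6664 CPM in GFPhi and 4032 of 5444 CPM in GFPlo cells. In KO cells Igj gave 89.3 of 781 CPM in GFPhi and 169 of 2829 CPM in GFPlo. How far the leukocyte mark, and the values below without leukocyte-marked cells, follow Igj was not tested.

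The 10 genes had 2868 counts in all. Des held 46.1% of them, Ttn 22.8%, Smyd1 17.6%, Myog 5.30% and Tnnc2 5.23%, so that the first 4 held 91.9%. Tnnt3 had 54 counts, Actc1 13, Acta1 12 and Ckm and Myl1 2 each. These are shares of sequenced tags copied from oligo-dT primers and are not set against gene length, so they do not rank the genes by level. Of the 10 genes, the alpha-actins, the myosin light chain Myl1 and muscle creatine kinase were at or near the floor of detection. A filament protein (Des), a giant scaffold (Ttn) and 2 regulators gave most of the counts. This does not hold for sarcomere genes as a class. Outside the 10, the light chain gene Mylpf had 141 counts in 21 cells and the troponin gene Tnni2 223 in 18, while Tcap and Myoz2 had 0.

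**Figure D1:**
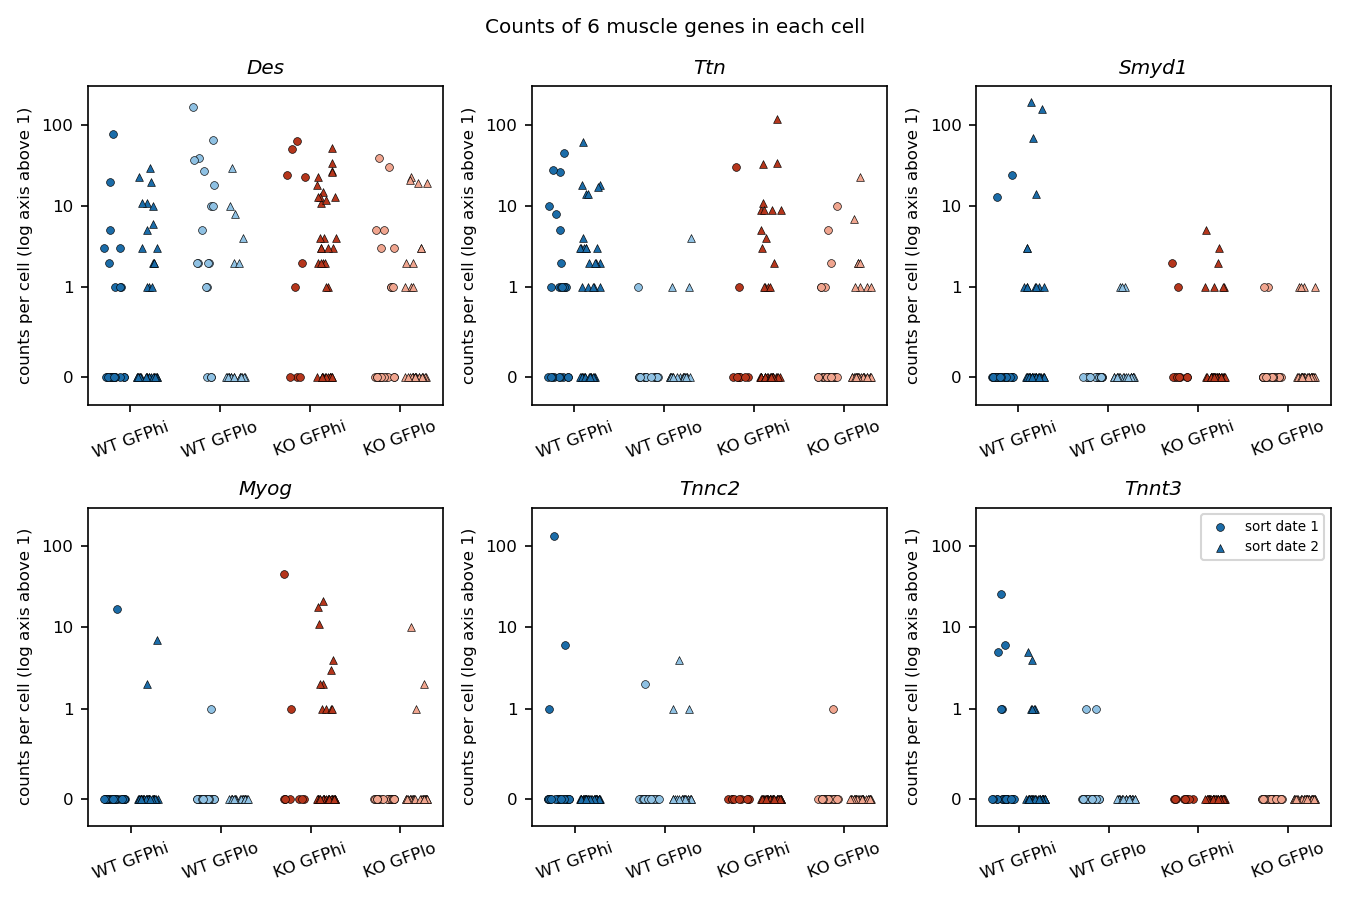
Counts of Des, Ttn, Smyd1, Myog, Tnnc2 and Tnnt3 in each of the 200 cells (vertical axis, logarithmic above 1), by group (horizontal axis) and sort date (circles date 1, triangles date 2). Of the 200 cells most lie at 0 for each gene. Within groups, Des was found in 64.6% of KO GFPhi and 53.8% of WT GFPlo cells, and Ttn in 59% of WT GFPhi cells. Few cells carry the high counts of Smyd1 (up to 190), Tnnc2 (134) and Myog (46).

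Among the regulators, Myog (chr1:134289989-134292548, plus strand, GRCm38) was found in 20 of 200 cells and in 7 of 52 sets. It was found in 13 of 48 KO GFPhi cells (27.1%, exact binomial 95% interval 15.3–41.8%) and 3 of 61 WT GFPhi cells, and in 3 KO and 1 WT cell of the GFPlo gate. The positive KO GFPhi cells held 1 to 46 counts with a median of 2. The positive WT GFPhi cells held 2, 7 and 17. KO GFPlo cells with Myog held 1, 2 and 10 counts, and the WT GFPlo cell 1. The groups overlapped at 0, since most cells of each group had none. The KO GFPhi group level was 37.2 CPM (30.6–44.7) against 7.50 (4.90–10.98) in WT GFPhi, a ratio of 4.96 (3.21–7.92). On date 1 the ratio was 3.78 (2.13–7.03) and on date 2 it was 7.70 (3.81–17.6). Date 1 had 9 KO and 23 WT GFPhi cells, with 46 of the 47 KO counts in 1 well and all 17 WT counts in 1 well. On date 2 the 9 WT counts lay in wells of ls_5.

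The Myog counts of KO GFPhi cells came from 2 primers. Primer ls_18 gave 101 counts in 8 of its 12 wells, 47 on date 1 (46 and 1) and 54 on date 2 (21, 18, 11, 2, 1 and 1), and primer ls_1 gave the other 11 in 5 of 6 wells. Of the KO GFPhi sets 3 of 11 thus held Myog, against 1 of 14 WT GFPhi sets, the joined sets of ls_5 and ls_12 left out. With only the deepest well of each set, and ls_5 and ls_12 left out, Myog was still higher in KO GFPhi (68 against 17 counts, log2 ratio 2.20, 1.41 to 3.06), but those 17 counts lay in 1 well. The log2 ratio over all wells was 2.31, against 1.61 without pool 4, 3.66 without pool 5 and 1.68 without leukocyte-marked cells. In GFPlo, KO cells held 13 counts against 1 in WT, a ratio of 15.9 (2.39–676). Of these 13 counts 12 lay in wells of primer ls_12, and without ls_5 and ls_12 both groups had 1 count. The ls_5 well of the same pool, labelled WT GFPhi, held 7 counts beside the 10 of its ls_12 partner, and the profiles of these 2 wells correlated at 0.93. The Myog difference in GFPlo therefore rests on wells whose label cannot be told apart from another group's.

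Smyd1 (chr6:71213940-71322233, minus strand) encodes a methyltransferase and myosin chaperone that striated muscle needs to assemble sarcomeres. It was found in 33 cells, 15 WT GFPhi (24.6%, 14.5–37.3%), 9 KO GFPhi (18.8%, 8.95–32.6%), 6 KO GFPlo and 3 WT GFPlo. The shares of cells lay within each other's intervals in GFPhi, while the counts did not: WT GFPhi cells held 1 to 190 counts (median of positive cells 3), and KO GFPhi cells at most 5, KO GFPlo and WT GFPlo cells at most 1. The WT GFPhi level was 138 CPM (126–151) and that of KO GFPhi 5.64 (3.29–9.04), 24.5-fold lower (15.2–42.4). By date the ratio of KO to WT was 0.111 (0.0219–0.351) and 0.0337 (0.0183–0.0571), and without leukocyte-marked cells the log2 ratio was −4.58 against −4.62 with them. It was −3.95 without pool 12 and −2.54 among umi primers alone, −4.72 without ls_5 and ls_12, and −4.14 with only the deepest wells. In GFPlo the 6 and 3 counts gave 3.25 and 1.33 CPM, a ratio of 2.45 (0.523–15.1) that leaves the direction unknown.

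Most of the 480 Smyd1 counts in WT GFPhi cells lay in 2 sets of date 2. Primer ls_13 had 190, 68 and 1 counts in 3 of 5 wells and ls_23 had 158, 14 and 3 in 3 of 5 wells. On date 1 a well of ls_14 had 24 counts and a well of umi_14 had 13. The 6 cells with more than 10 counts were thus all WT GFPhi, from 4 sets, and the ls_23 wells with 158 and 14 counts were leukocyte-marked. Smyd1 overlaps Krcc1, a gene on the opposite strand, and the counting strand is not given in the sources used here. Krcc1 was at 88.2 CPM in WT and 126 in KO GFPhi cells, the opposite order to Smyd1, and had 24, 21 and 5 counts in the wells with 190, 158 and 68 Smyd1 counts. Each KO GFPhi well with Smyd1 also held Krcc1, at 1 to 40 counts, the 40 beside 5 of Smyd1. Krcc1 was in 26 of the 33 Smyd1 wells and in 107 of all 200. The part of the overlap in the low Smyd1 counts was not tested. Fabp1, which lies near Smyd1 on chromosome 6, had 47 counts in WT GFPhi and 0 in KO GFPhi.

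Ttn (chr2:76703980-76982547, minus strand), the gene of titin, was found in 73 cells and 30 sets. The share was 59% (45.7–71.4%) in WT GFPhi and 37.5% (24–52.6%) in KO GFPhi, and 28.8% (17.1–43.1%) in KO and 10.3% (2.87–24.2%) in WT GFPlo. Positive WT GFPhi cells held 1 to 61 counts (median 3) and positive KO GFPhi cells 1 to 117 (median 7). KO GFPlo cells held at most 23 counts and WT GFPlo cells at most 4. The GFPhi shares differed in size with intervals that overlap, and the levels over both dates were 88.8 CPM (79.2–99.3) in WT and 93 (82.4–105) in KO, a ratio of 1.05 (0.887–1.23). Thinned to 10000 counts per cell, the shares were 32.7% and 27.3%, with intervals that overlap widely (20.7–46.7% and 14.96–42.8%). The dates gave opposite directions in GFPhi, a ratio of 0.324 (0.212–0.482) on date 1 and 1.5 (1.23–1.83) on date 2. On date 1 30 of the 31 KO counts lay in 1 well, and on date 2 117 of the 249 lay in 1 well of primer ls_1. With the deepest well of each set alone, and ls_5 and ls_12 left out, the log2 ratio over both dates was 1.03 (0.68 to 1.39), and without pool 11 it was −0.90, against 0.07 over all wells. Among umi primers alone it was −4.83 (−7.91 to −2.92), from 2 counts in KO and 62 in WT cells. No direction for Ttn in GFPhi thus held across dates and primers.

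In GFPlo, Ttn stood at 32.5 CPM (24.8–41.8) in KO and 3.10 (1.24–6.38) in WT, a ratio of 10.5 (4.79–27.2), with 32.1 (5.13–1330) and 6.69 (2.82–19.3) by date. In WT cells the GFPhi level was 28.7 times (13.8–71.9) that of GFPlo, and in KO cells 2.86 times (2.16–3.85). The KO order turned among umi primers alone, where GFPhi cells held 2 counts and GFPlo cells 16 (log2 ratio −3.73, −6.90 to −1.64). Over the 200 cells, which share pools and primers, the Ttn level and the cell's GFP intensity had r 0.12 and rho 0.21, and for Myog these were 0.20 and 0.17.

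The actin genes were rare. Acta1, skeletal alpha-actin, had 5 counts in 3 WT GFPhi cells, 5 in 4 WT GFPlo cells, 2 in 1 KO GFPlo cell and 0 in KO GFPhi cells. The 3 counts of its highest well and the 2 of the KO GFPlo well lay in the ls_5 and ls_12 wells of pool 11, a pair with a shared profile. Actc1, cardiac alpha-actin, had 13 counts in 7 cells, of which 8 lay in 3 WT GFPlo wells of primer ls_15 on date 1. No Actc1 count was found in KO GFPlo cells, where 0 of 52 allows a share of up to 5.77%, and no Acta1 count in KO GFPhi cells, where 0 of 48 allows up to 6.25%. Against the 8 Actc1 counts of WT GFPlo, which all lay in 1 set, the counting interval of the KO to WT ratio reached up to 0.717. For the other pairs of groups with more than 3 counts in 1 of them, the counting intervals of both actin genes held a ratio of 1. Acta1 lies within the annotated span of Gm20388, which runs on the opposite strand and had counts in all 200 cells.

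Among the troponin genes Tnnt3 was found in WT cells alone, and Tnnc2 in WT cells but for 1 count. Tnnt3 (chr7:142498836-142516009, plus strand, overlapped by Prr33), fast skeletal troponin T, ties the troponin complex to tropomyosin. It had 52 counts in 11 of 61 WT GFPhi cells (18%, 9.36–29.98%), 2 in 2 WT GFPlo cells, and 0 in the 100 KO cells. The WT GFPhi cells held 26, 6, 5, 5 and 4 counts and otherwise 1. With KO GFPhi set to 3 counts, its level was 15.1-fold lower than the 15 CPM (11.2–19.7) of WT GFPhi, and 9.5 and 4.07-fold lower by date. The counting interval of the KO to WT ratio over both dates reached up to 0.0847. Positive wells fell in 6 sets, 33 of the 54 counts lay in primer ls_23 on date 1, and wells of ls_5 held 5 and 1. Without ls_5 and ls_12 the WT GFPhi cells held 46 counts (KO set to 3 counts 14.4-fold lower). With only the deepest wells they held 31 counts in 3 wells (9.01-fold lower in the same way). Leukocyte-marked wells, the top well among them, held 37 of the 54. In the top well Myh4 (64 of its 88 counts), Tnnt1 (40 of 66) and Tnni2 (21 of 223), other fast or slow muscle filament genes, were found with it.

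Tnnc2 (chr2:164777161-164779967, minus strand), the calcium-binding fast troponin C, had 150 counts in 8 cells, of which 134 lay in 1 WT GFPhi well (primer ls_6, pool 5) and 6 and 1 in the other ls_6 wells of date 1. The other 5 cells, 4 WT GFPlo and 1 KO GFPlo, held 1 to 4 counts. The group level of 40.7 CPM in WT GFPhi against 0 counts in KO GFPhi, at least 40.8-fold lower, is thus that of 1 set. On date 2 no GFPhi cell of either genotype held a count. Tnnc2 overlaps the cell-cycle gene Ube2c on the opposite strand, and the well with 134 Tnnc2 counts had 0 counts of Ube2c. That well also held 76 counts of Des, 17 of Myog, 272 of Actn3 (fast muscle alpha-actinin), 62 of the muscle calcium channel gene Cacna1s and 55 of triadin (Trdn).

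Myl1, the fast myosin essential light chain, had 2 counts in 1 KO GFPlo cell, and Ckm, muscle creatine kinase, 1 count each in 1 WT GFPhi and 1 WT GFPlo cell. Neither allows a comparison.

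Des (chr1:75360329-75368579, plus strand) encodes desmin, the intermediate filament that links myofibrils in muscle and is also made by smooth muscle cells and pericytes. It was the most widely found gene, in 97 cells and 34 sets. The shares were 64.6% (49.5–77.8%) in KO GFPhi, 53.8% (37.2–69.9%) in WT GFPlo, 41% (28.6–54.3%) in WT GFPhi and 38.5% (25.3–53%) in KO GFPlo, and neighbours in that order overlap in their intervals. Positive cells held a median of 11, 8, 3 and 3 counts in the same order, with highest counts of 63, 166, 76 and 39. Group levels were 151 CPM (138–166), 196 (178–215), 69.8 (61.3–79.1) and 99.1 (85.2–115). KO GFPhi cells thus stood at 2.16 times (1.85–2.54) the WT level, and KO GFPlo cells 1.97-fold lower (1.66–2.36) than WT. In GFPhi both dates gave the same direction, 2.00 (1.57–2.57) and 2.39 (1.93–2.96). The primers did not: all 455 KO GFPhi counts lay in wells of ls primers. Among umi primers the 10 KO GFPhi wells held 0 counts and the 14 WT GFPhi wells 38. Set to 3 counts, KO was 11.6-fold lower there. With the deepest well of each set alone, and ls_5 and ls_12 left out, the GFPhi log2 ratio was 0.59 instead of 1.11. In GFPlo the dates differed in direction, with 0.365 (0.286–0.461) on date 1 and 1.73 (1.23–2.46) on date 2, and umi primers alone gave a log2 ratio of 3.004 (2.07 to 4.07).

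The WT GFPlo level of Des came mostly from date 1, 356 CPM against 46.9 on date 2, and from primer ls_15, whose 4 wells of date 1 held 166, 39, 37 and 27 counts. The top well was leukocyte-marked. With the deepest well of each set alone and without ls_5 and ls_12, the log2 ratio of Des in GFPlo was 0.43 (0.013 to 0.85) instead of −0.98, and without leukocyte-marked cells it was −0.0081. The summed level of markers of smooth muscle and pericytes was higher in the groups where Des was higher, a sum that 1 gene leads. It was 1383 CPM in WT GFPlo and 1252 in KO GFPhi, against 632 in WT GFPhi and 721 in KO GFPlo, with the pericyte gene Rgs5 at 968, 697, 176 and 426 CPM in those groups. Other markers had the opposite order in GFPhi, with Acta2 at 143 CPM in WT and 22.6 in KO cells and Higd1b at 85.9 and 0. Of the 10 markers with 10 or more counts in GFPhi, 3 had a KO to WT ratio of 0.5 or less and 3 of 2 or more, with a median log2 ratio of 0.14. Per cell the sum ran from 0 to 7132, 9423, 2060 and 4902 CPM. Across the 200 cells, which share libraries and depth, the rank correlation with Des was 0.10 for Rgs5, 0.10 for Myh11, −0.094 for Acta2 and 0.21 for Pdgfrb. Defining markers were sparse, with Pdgfrb in 18 cells, Cspg4 in 20, Tagln in 13, Cnn1 in 2 and Smtn in 0. The part of such cells in the Des result was not tested, and fewer positive cells cannot be told apart from less RNA per cell in the group levels.

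**Figure D2:**
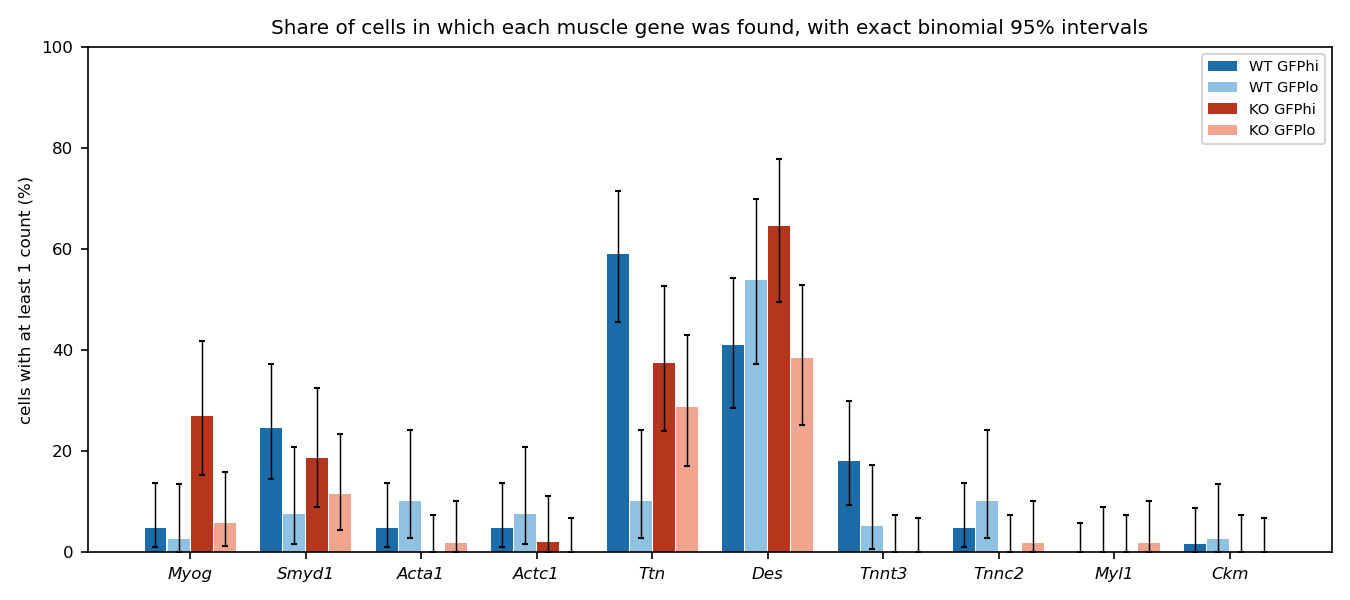
Percent of cells of each group (vertical axis) with at least 1 count of each of the 10 genes (horizontal axis), with exact binomial 95% intervals over the cells of a group. Ttn and Des were found in up to 59% and 64.6% of a group, Myog in 27.1% of KO GFPhi cells, and Tnnt3 in no KO cell.

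The leukocyte-marked wells also held Krt8 and Aire in most cases, so their shares are a description and no muscle-free background. Among the 40 leukocyte-marked cells (median total 39477.5), 45% (29.3–61.5%) held Ttn, 30% (16.6–46.5%) Des, 17.5% (7.34–32.8%) Smyd1, 7.5% Tnnt3 and 5% Myog. Among the other 160 cells (median total 28839) the shares were 34.4%, 53.1% (45.1–61%), 16.3%, 6.25% and 11.3%. The intervals overlapped for Des and for Myog (0.611–16.9% and 6.81–17.2%). The background that free RNA gives in a well was not measured here. Leukocyte-marked cells held 181 of the 506 Smyd1 counts and 2 of the 152 Myog counts.

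In the comparison of KO with WT in GFPhi, 3 of the 6 muscle genes with 10 or more counts over both groups had a ratio of 0.5 or less (Smyd1, Tnnt3 and Tnnc2), where 29.5% of all 15033 such genes did. A ratio of 2 or more was reached by Des and Myog, 2 of 6, against 20.2% of all genes. The median log2 ratio of the 6 was −2.25, and −1.92 with 0 counts set to the floor of 3, against −0.13 over all genes. Both medians fall in the gap between Ttn, at 0.07, and the 3 low genes, so they describe no single gene. Tnnt3 and Tnnc2 had 0 counts in KO GFPhi and reached 10 through WT GFPhi alone. The genes did not share a direction, and the summed level was 287 against 363 CPM (ratio 0.791, 0.725–0.863). That sum depends on single wells: without the well with most member counts its log2 ratio was −0.035 instead of −0.34, and the mean of per-cell levels gave 0.12.

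In KO against WT GFPlo, 0 of the 3 genes with that many counts (Des, Ttn and Myog) had a ratio of 0.5 or less, where 27.7% of 13882 genes did, and 2 had a ratio of 2 or more against 23.8%. These 2, Ttn and Myog, held 7 and 1 counts in WT GFPlo and reached 10 through KO GFPlo alone. The sum was 145 against 211 CPM (0.685, 0.587–0.797), with log2 ratios of −1.18 on date 1 and 1.10 on date 2. It was 0.30 without leukocyte-marked cells, 0.011 without pool 1 and 1.55 without Des. Des gave 387 of the WT GFPlo counts on date 1.

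In WT cells, GFPhi against GFPlo, 5 of the 8 genes with at least 10 counts had a ratio of 2 or more (Smyd1, Ttn, Tnnt3, Tnnc2 and Myog), where 27.9% of 15064 genes did, and 2 (Des and Actc1) a ratio of 0.5 or less, where 24.2% did. The median log2 ratio was 3.48, 3.8 with zeros at the floor, against 0.048 over all genes. The 5 genes held 3, 7, 2, 8 and 1 counts in GFPlo, in the order named, so they reached 10 through GFPhi alone. Of the 141 Tnnc2 counts in GFPhi 134 lay in 1 well, and on date 2 GFPhi held 0 and GFPlo 6. Of the 26 Myog counts in GFPhi 17 lay in 1 well and 9 in wells of ls_5. Smyd1 was at 104 times (35.5–508) the GFPlo level, Ttn at 28.7, Tnnt3 at 16.9 (4.46–144) and Des 2.80-fold lower (2.39–3.29). For Des that order was the one of date 1 (ratio 0.270), while date 2 gave 1.20 (0.872–1.68) and umi primers alone a log2 ratio of 1.31 against −1.49 over all wells. In KO cells, 2 of 4 genes (Ttn and Myog) had a ratio of 2 or more, where 24.8% of 13898 genes did, and 0 of 4 a ratio of 0.5 or less, where 26.2% did. Des was at 1.52 times (1.28–1.82) the GFPlo level, a log2 value of 0.61 that was −0.070 once leukocyte-marked cells were left out, and umi primers gave the opposite order with 0 counts in GFPhi and 68 in GFPlo. Myog was at 5.28 times (2.97–10.2), log2 2.402, and at log2 1.65 without pool 4 and 4.75 without pool 11. These 4 comparisons share groups in pairs and are not independent of each other.

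**Figure D3:**
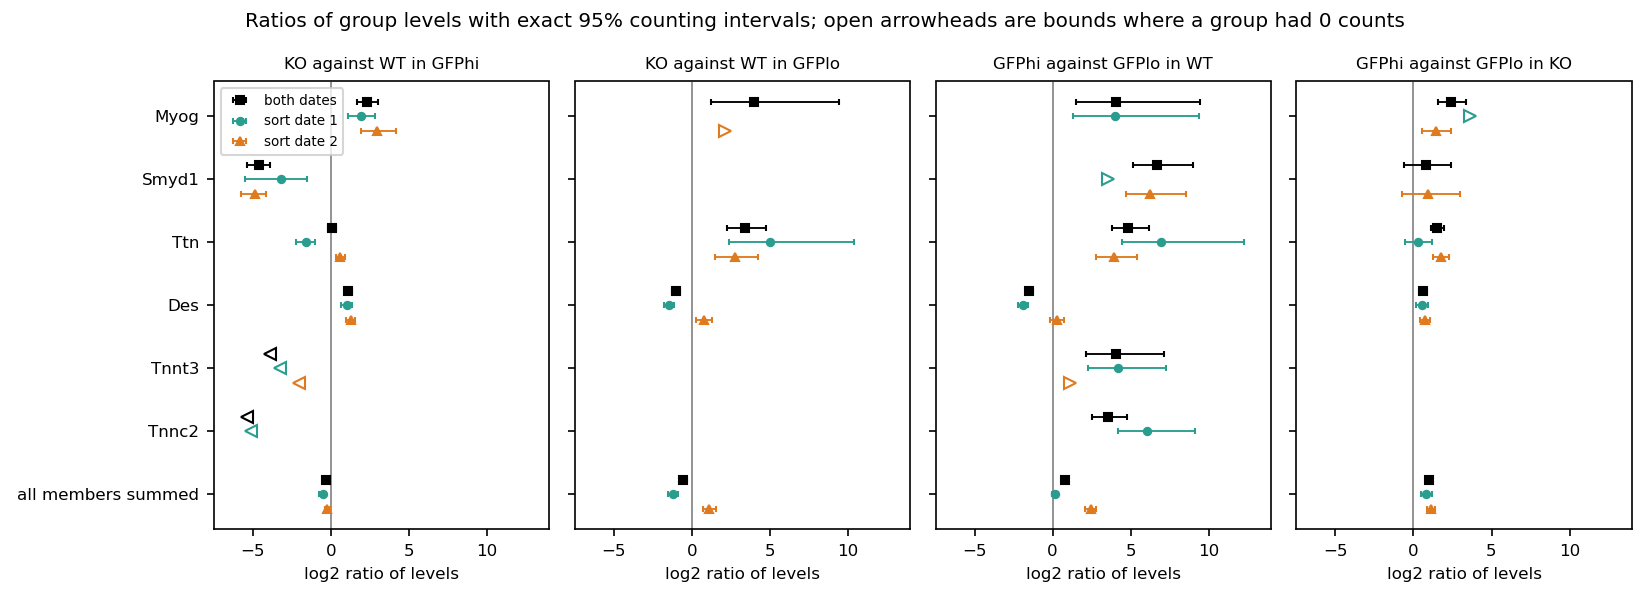
Log2 ratios of group levels (horizontal axis) with exact 95% counting intervals for 6 genes and the sum of the 10 (vertical axis) in the 4 comparisons, over both dates (squares) and on date 1 (circles) and date 2 (triangles). Open arrowheads are bounds where a group had 0 counts, and values with under 10 counts in the pair are left out. In KO against WT the dates fall on opposite sides of 0 for Ttn in GFPhi, and for Des and the sum in GFPlo. They also do so for Des in GFPhi against GFPlo in WT.

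At least 1 of the 10 genes was found in 154 of 200 cells (77.0%, 70.5–82.6%), in 50 WT and 42 KO cells of the GFPhi gate and in 30 WT and 32 KO cells of the GFPlo gate. Thinned to 10000 counts per cell, the GFPhi shares were 63.6% of 55 WT and 68.2% of 44 KO cells, and the GFPlo shares 46.9% of 32 WT and 39.6% of 48 KO cells, with overlapping intervals for the WT pair (49.6–76.2% and 29.1–65.3%) and for the KO pair (52.4–81.4% and 25.8–54.7%). Exactly 1 gene was found in 82 cells, 2 in 45, 3 in 19, 4 in 7 and 5 in 1 well. The number found followed depth (Pearson r 0.43, Spearman rho 0.42 over 200 cells that share pools and primers), and after thinning it hardly did (r 0.071 over 179 cells). Cells with at least 3 numbered 13 WT and 9 KO in GFPhi and 2 WT and 3 KO in GFPlo, 27 in all, and 7 of 179 after thinning.

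Co-detection was mostly Des with Ttn. The pair was found in 33 wells, 34% of the Des wells and 45.2% of the Ttn wells, while Des was found in 48.5% and Ttn in 36.5% of all wells. Among the deepest wells alone, ls_5 and ls_12 left out, it was found in 14 of 50, with Des in 26 and Ttn in 26. Of the 45 possible pairs of genes 25 shared at least 1 well and 10 at least 5. Smyd1 was found with Ttn in 17 and with Des in 15 of its 33 wells. Tnnt3 was found with Ttn in 10 of its 13 wells, where 36.5% of all wells held Ttn. Of these 13 wells 11 were WT GFPhi, 9 of them with Ttn, and 59% of all WT GFPhi cells held Ttn. The 13 wells lay in 6 sets. Smyd1 shared 0 wells with Tnnt3 and 0 with Tnnc2, and Tnnt3 shared 0 with Myog.

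All 20 Myog wells held Des or Ttn, 17 held Des, 13 Ttn and 10 both, while 137 of all 200 wells held Des or Ttn. In the KO GFPhi group 11 of the 13 Myog wells held Des and 9 held Ttn. Of all KO GFPhi cells 64.6% held Des and 37.5% Ttn. These 20 wells fall in 7 sets, and wells of a set can share a profile, so the 20 wells may not be independent. Among the 50 deepest wells 5 held Myog, all 5 with Ttn and 3 with Des, and 38 of the 50 held Des or Ttn. After thinning, Myog remained in 10 wells.

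Of the 27 wells with at least 3 of the genes 26 held Des, 26 Ttn and 25 both. They fell in 18 sets, 11 wells on date 1 and 16 on date 2, 24 with ls primers, 6 with primer ls_18 and 9 in pool 11 of 30 wells in that pool. Their totals ran from 9213 to 370365 with a median of 84207, and 7 lay under the median of all cells. The well with 5 genes was WT GFPhi cell 51 (primer ls_5, pool 11), with Des 20, Myog 7, Acta1 3, Ttn 1 and Smyd1 1 counts. Its ls_12 partner, KO GFPlo cell 39, held Des 19, Myog 10, Acta1 2 and Ttn 2. Both also held 12 counts of the ventricular light chain Myl2 and 16 and 21 of the myogenic factor Myf5, so in this pair the shared profile extended to muscle genes. The pair of pool 5, correlated at 0.97, shared Des alone of the 10. Its ls_5 well held Des 20, Tnnt3 5 and Ttn 1 counts, and its ls_12 well Des 3 and Tnnc2 1.

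**Figure D4:**
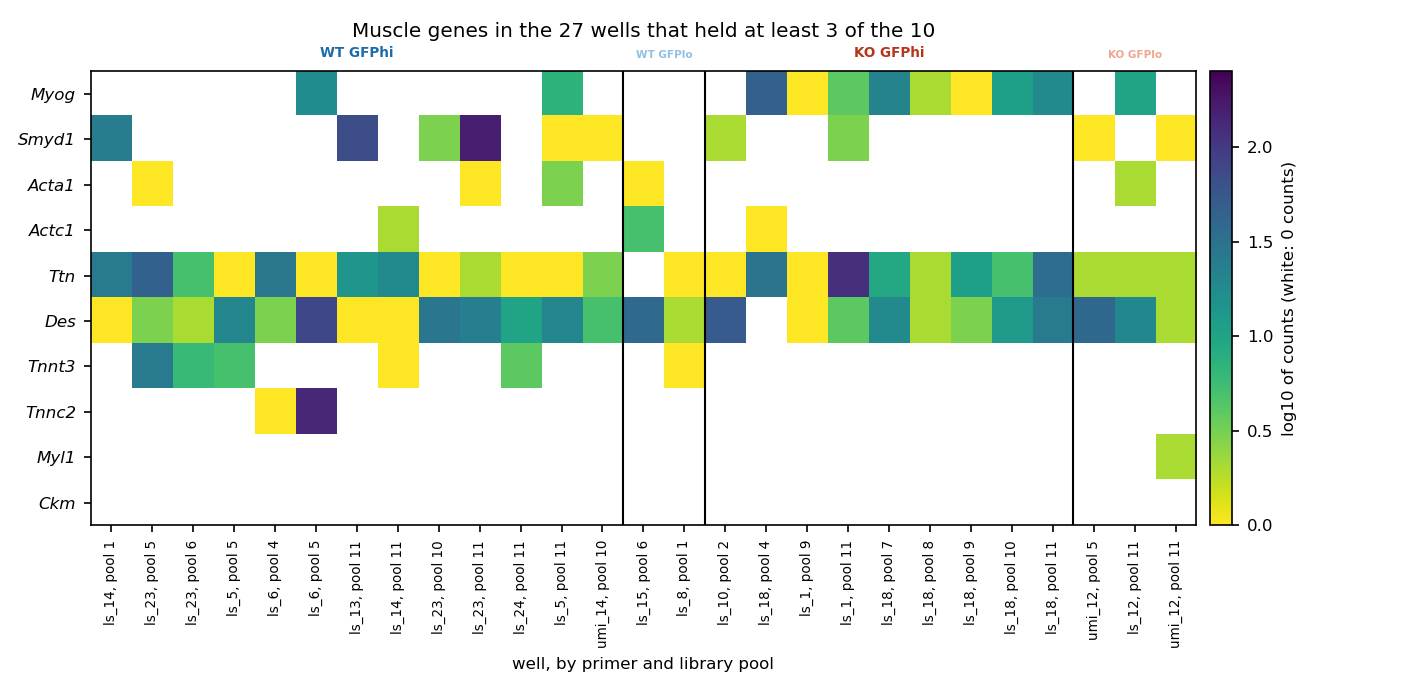
Log10 of the counts (colour, white for 0) of the 10 genes (rows) in the 27 wells that held at least 3 of them (columns, named by primer and pool, and ordered by group and sort date). Ttn and Des fill almost every column, Myog marks 8 of the 9 KO GFPhi wells, and the troponin genes are found in WT wells only.

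Of 38 further sarcomere genes, 23 had 10 or more counts in GFPhi, of which 11 had a KO to WT ratio of 0.5 or less and 4 of 2 or more (29.5% and 20.2% of all genes). Tcap, Myoz2, Lmod2 and Lmod3 were at 0 in every cell. The widely expressed tropomyosin gene Tpm3 led the list with 4588 counts in 179 cells, followed by Actn3 (3916 in 150 cells) and Tpm2 (1906 in 112). Actn3, of fast fibre Z discs, stood at 546 CPM in WT and 456 in KO GFPhi cells, and at 101 in WT and 227 in KO GFPlo cells. Actn3 and Tpm3 were each in 25 of the 27 wells with at least 3 muscle genes, and Tpm2 in 19. Tnnt2, cardiac troponin T, was in 17 of them and in 61 cells in all.

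Of 25 genes of excitation and energy use, 14 had 10 or more counts in GFPhi, 7 with a KO to WT ratio of 0.5 or less and 2 of 2 or more, where 29.5% and 20.2% of all genes were, with a median log2 ratio of −1.35 against −0.13 over all genes. The calcium pump Atp2a2, which is not confined to muscle, had 2399 counts, the junctional protein Jph1 1544 and the muscle enolase Eno3 902. Jph1 was in 26 of the 27 wells and in 136 cells, at 157 CPM in WT and 227 in KO GFPhi cells, and at 29.6 in WT and 134 in KO GFPlo cells. Myoglobin (Mb) had 64 of its counts, 80.0%, in the WT GFPhi well with 158 Smyd1 counts.

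Among the regulators that act with or before myogenin, Myod1, Myf6 and Pax7 were at 0 in all 200 cells, at a total of 10587921 counts. Myf5 was found in 98 cells with 383 counts and in 17 of the 27 wells. Klhl40, a stabiliser of thin filament proteins, had 1452 counts in 185 cells and Mef2c 1049. The 13 regulators included 10 with 10 or more counts in GFPhi, 4 with a KO to WT ratio of 0.5 or less and 1 of 2 or more (all genes 29.5% and 20.2%).

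Genes of the neuromuscular junction were led by Musk, the kinase that gathers acetylcholine receptors, with 2236 counts in 194 cells, and by its co-receptor Lrp4 with 772 in 146. Musk was at 196 CPM in WT and 173 in KO GFPhi cells, at 272 in WT and 226 in KO GFPlo cells, and was found in 26 of the 27 wells. Lrp4 stood at 46.1 and 156 CPM in WT and KO GFPhi. Chrng, the fetal receptor subunit, had 127 of its 152 counts in 1 WT GFPlo well of primer ls_15, the well that also held 37 Des and 5 Actc1 counts. Of the 9 genes of this list 5 had 10 or more counts in GFPhi, 0 with a KO to WT ratio of 0.5 or less and 1, Lrp4, of 2 or more, beside the same 29.5% and 20.2% of all genes.

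Cardiac markers were few. Nppa had 218 of 249 counts in 1 ls_6 well of pool 6, and Myh6 and Nkx2-5 were at 0 in every cell. Fibroblast and endothelial markers summed to 251 CPM in WT and 178 in KO GFPhi cells, and the WT GFPhi well with 158 Smyd1 counts held 147 of the 201 Col1a1 counts and 462 of the 974 Acta2 counts. The well with 190 Smyd1 counts held 75 Col1a2 counts, 63.6% of that gene's total. The part of such cells in the Smyd1 level was not tested.

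The counts of several of the genes were more concentrated than those of other genes of like depth. The top set held 94.0% of the Tnnc2 counts, against a median of 28.3% for 5263 genes of like counts, and 51.2% of the Smyd1 counts against 17.5% for 5102 genes. For Tnnt3 it was 61.1% against 42.5%, for Myog 35.5% against 28.2%, for Ttn 23.2% against 16.1% and for Des 20.3% against 13.4%. Acta1 went the other way, with 41.7% against 50%. Smyd1 was in 33 wells, where genes of like counts were in a median of 67, and Tnnc2 in 8 against 31. These are descriptions of 200 wells in 52 sets.

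**Figure D5:**
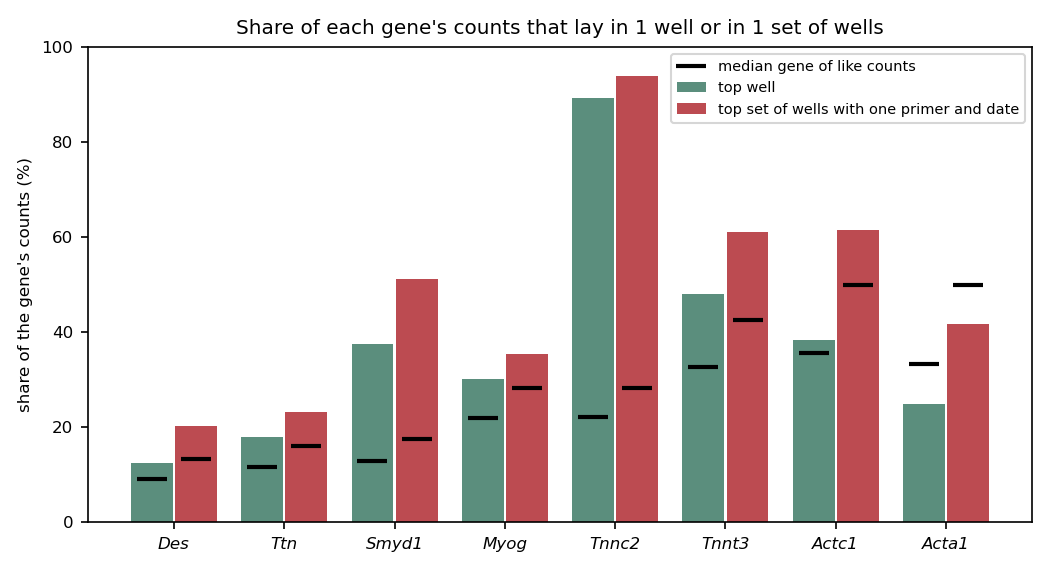
Share of each gene's counts (vertical axis, percent) that lay in its top well and in its top set of wells with one primer and date, for the 8 genes with at least 10 counts (horizontal axis), with black bars for the median gene of like counts. Tnnc2 and Smyd1 stand well above those medians, with 94.0% and 51.2% in 1 set, and Acta1 lies below its own.

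For likeness of pattern, the share of wells with either gene that held both (Jaccard index) was computed against 13935 genes found in at least 10 cells outside the lists. Des was most like Ache, acetylcholinesterase (0.58, 81 wells with both), Sspo (0.56) and Aire itself (0.55, 92 of the 97 Des wells). All were widely found, Ache in 123, Sspo in 135 and Aire in 161 of the 200 wells. A high index can come from how widely a gene was found, so it does not tie Des to Aire. Ttn was most like Ccdc148 (0.44), Prune2 (0.43) and Atp5g2 (0.42). Myog was most like Rhebl1 (0.41, 12 of 20 wells), 6430573F11Rik (0.39) and Gm12230 (0.35). Smyd1 was most like Wsb2 (0.34), Npat (0.33) and Derl3 (0.32), and Tnnt3 most like AC171500.1 (0.35), Cst8 (0.33) and Shf (0.33). Wells of a set are counted singly here, so these values describe wells, which may not be independent.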

How the data were processed

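The deposited table gives whole-number counts per gene for 200 wells, not normalized by the authors, and the deposited metadata give each well's sort date, pool, primer and cytometer intensity (arbitrary units), per the file headers. The submitters' processing notes name TopHat, TopHat2, Picard 1.79, SAMtools 0.1.19, HTSeq and mm10. The role of each, the counting strand and the collapsing of molecular identifiers are not given in the sources used here. All 200 wells were kept, no doublet step was run, and 0 count columns lacked a sample.

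Counts were summed over a group and divided by its total (CPM), with exact Poisson intervals, exact conditional binomial intervals for ratios and exact (Clopper-Pearson) intervals for shares, at 95% and for counting error only. A group at 0 was set to 3 counts for a bound, which leaves out the counting error of the other group. A gene was called past a fold of 2 where both groups together held 10 counts or more. Medians of log2 ratios added 0.5 counts. Wells were thinned to 10000 counts, leaving out 21. Positions came from GENCODE M21 on GRCm38. The code was tested on simulated data. With 1 sample per group no test was run. TMM factors came from edgeR 4.0.16 (R 4.3.3), intervals from scipy 1.17.1 (Python 3.11.15).

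The 10 genes and the other lists were chosen with earlier results of these data known. Named genes were the 10, the 3 of most counts in each list, list genes in wells with at least 3 of the 10, and the 3 of highest Jaccard index for each of the 10 in at least 10 cells. Some genes that the rule names are not reported here. Other genes named beside a single well were chosen after their values were seen, as were the alternatives that leave out ls_5 and ls_12 or keep the deepest well of a set. The others tried were dates, primer kinds, pools, depth, leukocyte-marked wells, scaling and averaging.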

Additional observations from a re-analysis of the deposited data

Results flagged for a closer look

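Des stood out because its difference between genotypes had opposite signs in the gates. The log2 ratio of KO to WT was 1.11 in GFPhi and −0.98 in GFPlo, and in the other direction that of GFPhi to GFPlo was −1.49 in WT and 0.61 in KO. By date the GFPlo value of Des was −1.45 and 0.79, and that of all 10 genes summed was −1.18 and 1.10. Ttn in KO against WT GFPhi was −1.63 on date 1 and 0.58 on date 2. Each group was 1 sample, so none of these differences was tested, and the wells of a date share primers.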

How the results depend on the processing

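No paired analysis was possible because replicate numbers only name cells in accession order and each group is 1 sample. Values are log2 ratios of summed levels unless said otherwise, and the cause of each move was not tested. For KO against WT in GFPhi the sum stood at −0.34. It was −0.51 on date 1, −0.18 with ls and −4.45 with umi primers, −0.49 without leukocyte-marked cells, −1.11 without Des, −0.035 without the cell of most member counts, −0.44 to −0.082 with each pool left out in turn, and reversed to 0.12 as a mean of per-cell levels. In GFPlo it was −0.55, with −1.18 on date 1, −1.09 with ls primers, −0.86 as a mean of per-cell levels and −1.04 to 0.011 over pools left out. It reversed to 1.10 on date 2, 2.59 with umi primers, 0.30 without leukocyte-marked cells, 0.81 with the deepest cell of each set (ls_5 and ls_12 left out), and 1.55 without Des. For GFPhi against GFPlo in WT it was 0.78, with 0.15 and 2.44 by date, 2.17 with umi primers, 1.23 without leukocyte-marked cells, 2.06 with the deepest cells, 0.18 as a mean, 4.24 without Des, 0.48 without the top cell and 0.43 to 1.33 over pools. In KO it was 0.99, with 1.57 with ls primers, −4.87 with umi primers, 0.44 without leukocyte-marked cells and 1.58 without Des.

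The share of cells with at least 1 of the genes was 82.0% in WT GFPhi, and 46.7% and 63.6% thinned to 5000 and 10000 counts, 59% at 2 counts or more, and 92.9% with umi primers and with the deepest cells. In WT GFPlo 76.9% became 35.9%, 46.9% and 56.4% in the first 3 of these settings. In KO GFPhi 87.5% became 62.5%, 68.2% and 68.8%, and 68.6% at 20000 counts, 97.4% with ls and 50% with umi primers. In KO GFPlo 61.5% became 25.5%, 39.6% and 38.5%, and 84.6% with the deepest cells. Wells with at least 3 of the genes numbered 27, and 4, 7 and 13 thinned to 5000, 10000 and 20000 counts, 12 at 2 counts or more, 13 with the deepest cells and 18 to 27 over pools. Genes at a KO to WT ratio of 0.5 or less numbered 3 in GFPhi and 6 with no minimum of counts, and in GFPlo 0, with 5 at no minimum, 1 under TMM scaling and 1 on date 1.

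Of the values for single genes 253 moved within their interval, 53 moved beyond it and 7 reversed. A reversal was counted only where the interval over all wells left out 0. Ttn in KO against WT GFPhi, at 0.07 with an interval across 0, is therefore not among the reversed ones. It had 8 of 22 values that moved, among them −1.63 on date 1, −0.90 without pool 11 and −4.83 with umi primers. Alternatives with 0 counts in a group gave no ratio and are not counted either, among them Des with umi primers, with 0 KO and 38 WT counts in GFPhi, and 0 counts in GFPhi against 68 in GFPlo of the KO, each opposite to the order over all wells. The reversed ones were Des in KO against WT GFPlo (0.79 on date 2, 3.004 with umi primers, 0.43 with the deepest cells), Des in GFPhi against GFPlo in WT (0.27 on date 2, 1.31 with umi primers) and in KO (−0.070 without leukocyte-marked cells), and Ttn in GFPhi against GFPlo in KO (−3.73 with umi primers). Smyd1 in KO against WT GFPhi ran from −4.89 to −2.54 and Myog from 1.61 to 3.66. Wells of umi primers were 47 of 200, and at a median of 29106.5 counts per cell genes with few counts could not be compared.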
